A study of Mus musculus with 8 samples.

Results

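Peroxisomes are small organelles bounded by a single membrane that shorten very long and branched fatty acids, make ether lipids and bile acids, and break down the hydrogen peroxide their oxidases release. They hold no DNA, so every peroxisomal protein is encoded in the nucleus and brought in after translation, by the import proteins called peroxins (Pex genes). In the liver, which holds many peroxisomes, several of the fatty acid enzymes are under the control of the nuclear receptor PPARA. Transcripts of 31 such genes, 13 peroxins and 18 peroxisomal enzymes and transporters, were followed here. They were chosen by name, from what their proteins do, and 31 of 31 were found among the 24411 gene symbols of the table.

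RNA sequencing was done on hepatocytes, the main cell type of the liver, isolated from mice and harvested 2 days after plating. The wild-type group (WT) held 4 libraries, and so did the knockout group, from mice in which Taf2 was conditionally deleted in hepatocytes. Taf2 encodes a subunit of TFIID, the complex that recognises core promoters at the start of transcription by RNA polymerase II. The sources used here do not give the Cre driver, the deleted exons, the strain, or the age and sex of the mice, nor whether the libraries of a genotype came from separate animals, so the p-values measure the spread between these libraries, which may be technical. Library totals ran from 18947060 to 23933585 counts. Levels are CPM, a gene's share of the scaled library total, and fold changes are log2 ratios of knockout to wild type, each with its standard error (SE).

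Taf2 stood between 865 and 979 counts in the wild-type libraries and between 269 and 329 in the knockout libraries, a level of 31.6% of the wild type (exact two-sided permutation p = 0.029, the smallest that 4 against 4 libraries allow). Hepatocyte markers were abundant in both genotypes, Alb at 38035 CPM in wild-type and 55183 CPM in knockout cells and Apob at 5694 and 3397 CPM, although Cyp7a1 stayed below the filter on low counts. Of 20 hepatocyte markers tested 13 were higher in the knockout (65%, beside 30.2% of all genes) and 6 lower (30%, beside 31.2%). Markers of other liver cells also differed, and in bulk RNA a change in the number of cells of a type and in the RNA per cell cannot be told apart. Of 17 macrophage markers 17 were higher, where 30.2% of all genes were, with a median log2 fold change of 2.11. Their sum lay between 158 and 183 CPM in the wild-type libraries and between 345 and 375 CPM in the knockout. It is mostly Cd68 (84.1 and 172 CPM) and Cd14 (64.8 and 87.9 CPM), whose fold changes were below that median. Of 16 endothelial markers 15 were higher, with a median log2 fold change of 1.65. Their sum was 79.4 to 88.2 CPM in the wild type and 203 to 212 CPM in the knockout (Stab1 from 21.5 to 42.2 CPM, Cdh5 from 11.6 to 35.1 CPM). Of 17 stellate cell and fibroblast markers 13 were higher and 3 lower, with a median log2 fold change of 1.78. Among those higher were Dcn (3.46 and 26.4 CPM) and Reln (61.7 and 101.7 CPM). The sum of this list is mostly Vim (1103 and 948 CPM) and Tagln (139 and 27.6 CPM), both lower. It lay between 1272 and 1371 CPM and then between 1132 and 1242 CPM. Some markers, such as Adgre1, Ptprc, Tyrobp, Gpihbp1, Col1a2 and Lum, passed the filter on low counts only through the knockout libraries. Their calls are no support for a difference, and the counts and medians above include them. Cholangiocyte markers were higher in 3 of 6 cases and lower in 3, with sums of 337 to 350 and 489 to 535 CPM (Cldn4 203 and 335 CPM, Spp1 68.1 and 79.04 CPM) and Cftr at 0 counts in the wild type. Of these, the call for Spp1 (edgeR adjusted p = 0.0481, with overlapping libraries) was lost in 8 of 16 alternatives, among them without wild-type replicate 1 (0.116), 2 (0.117) or 4 (0.0942) or knockout replicate 2 (0.192) or 4 (0.176), over a range of 0.00145 to 0.199. Of the red cell markers Hbb-bt, Hba-a2 and Slc4a1 had 0 counts in all libraries, and the sum of 25.3 to 27.9 CPM in the wild type and 18.6 to 20.1 CPM in the knockout was almost all Alas2. The part of these cells in the results below was not tested.

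The comparison of the genotypes asked how peroxisomal transcripts differ in hepatocytes from mice with the Taf2 deletion. The peroxisomal genes did not move as a block. Acaa1b, which encodes a thiolase of fatty acid oxidation, rose 2.32-fold, and the abundant enzyme genes Phyh, Ech1, Cat and Scp2 rose by less, at most 1.41-fold. Amacr fell to 54.1%, Hsd17b4 to 64.8%, Pex19 to 73.7% and the transporter gene Abcd3 to 76.1% of the wild-type level. Most other peroxins and both ether lipid enzymes lay closer to it.

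Of the 31 genes tested, 8 were higher, 11 were lower and 12 did not pass (edgeR's quasi-likelihood test, Benjamini-Hochberg adjusted p under 0.05 over all 12122 genes). That is 25.8% higher and 35.5% lower, beside 30.2% higher, 31.2% lower and 61.4% called in either direction among all genes tested, so the share called among the peroxisomal genes was near the background. The median absolute log2 fold change was 0.14, smaller than the 0.22 over all genes. The median log2 fold change was -0.091 against -0.0035 over all genes, and -0.047 without knockout replicate 1. A change of at least 1.5-fold was called for 2 genes upward and 2 downward, together 12.9%, beside 11.5% upward, 6.89% downward and 18.4% in all for every gene tested. One of those upward, and of the 8 higher, is Abcd2, which passed the filter on low counts only through the knockout libraries, and under a stricter filter that removes it 3 genes were left at 1.5-fold. The 4 wild-type and 4 knockout libraries did not overlap for 19 of the 31 genes, beside 54.7% of all genes. The sum of the 31 genes lay between 2638 and 2712 CPM in the wild-type libraries and between 2802 and 2923 CPM in the knockout libraries.

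**Figure D1:**
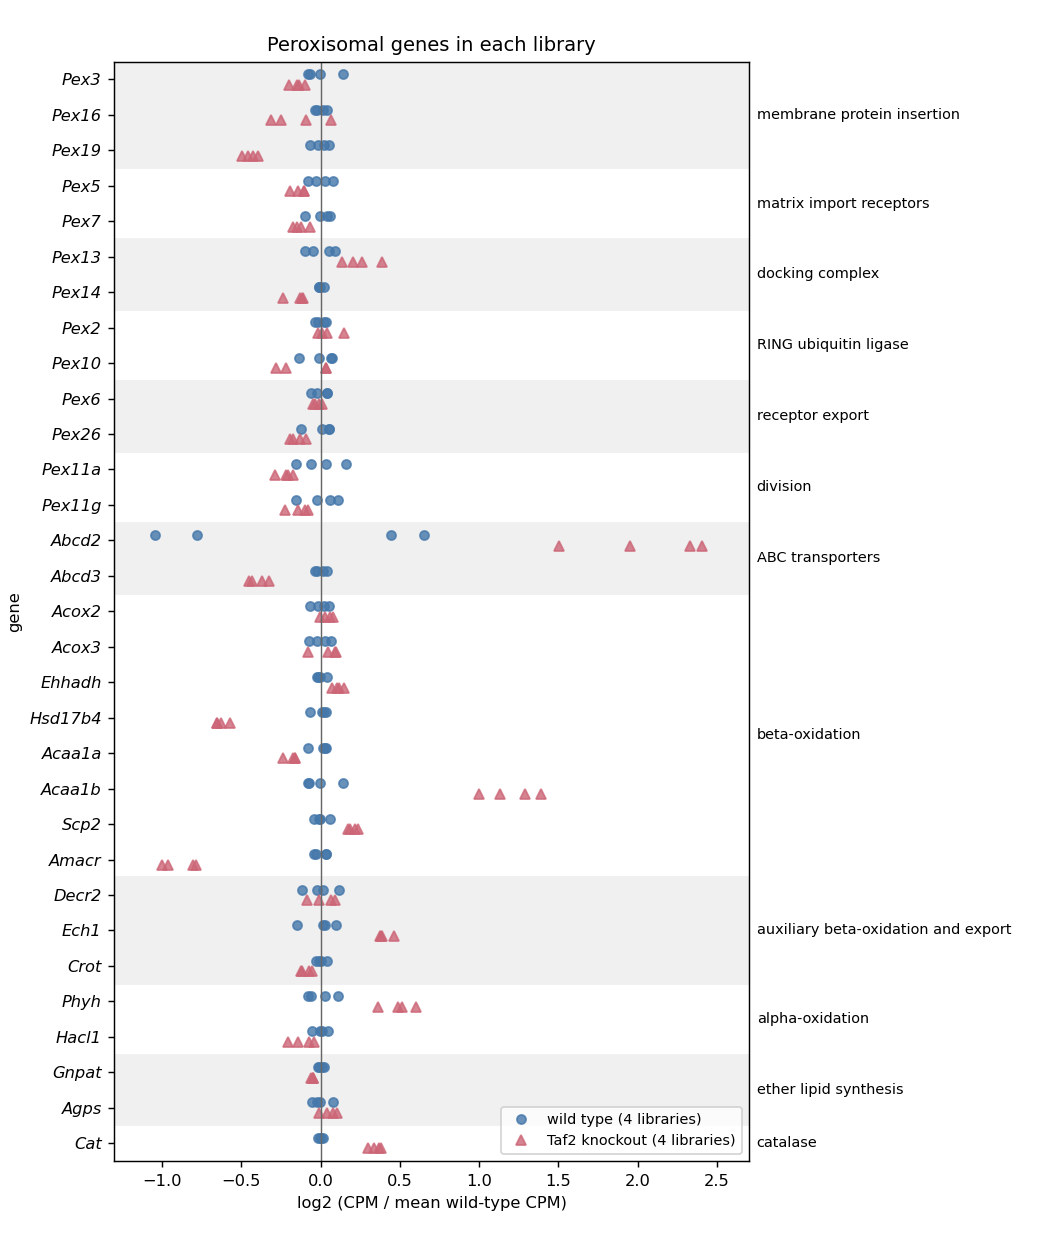
Log2 ratio of each library's CPM to the mean wild-type CPM of that gene, for the 31 peroxisomal genes grouped by role; circles are the 4 wild-type and triangles the 4 knockout libraries. Acaa1b and the weakly expressed Abcd2 stand to the right in the knockout and Amacr, Hsd17b4, Pex19 and Abcd3 to the left, while most Pex genes lie close to 0.

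Replicates lay close together. Without Abcd2, the coefficient of variation of the 30 other genes had a median of 3.6% in the wild type and 3.39% in the knockout, with maxima of 9.39% and 11.9%. Per length of transcript, the order of levels in the wild type was led by Cat (178 CPM per kb), Phyh (175 CPM per kb) and Scp2 (167 CPM per kb), neighbours whose libraries overlapped. Hsd17b4 followed at 67.4 CPM per kb and Crot at 53.8 CPM per kb. Most peroxins stood lower, from 40.4 CPM per kb for Pex5 to 2.65 for Pex10 and 2.43 for Pex11g, and Abcd2 was last at 0.0323 CPM per kb. Of 30 neighbouring pairs in this order 18 overlapped between libraries, so their order is not resolved. By mean level, Phyh (246 CPM per kb) stood above Cat (226 CPM per kb) in the knockout. Acaa1b moved from rank 15 to rank 6 by its mean, 49.1 CPM per kb. Overlap of neighbours was compared in the wild type only, so the order in the knockout cannot be called resolved.

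**Figure D2:**
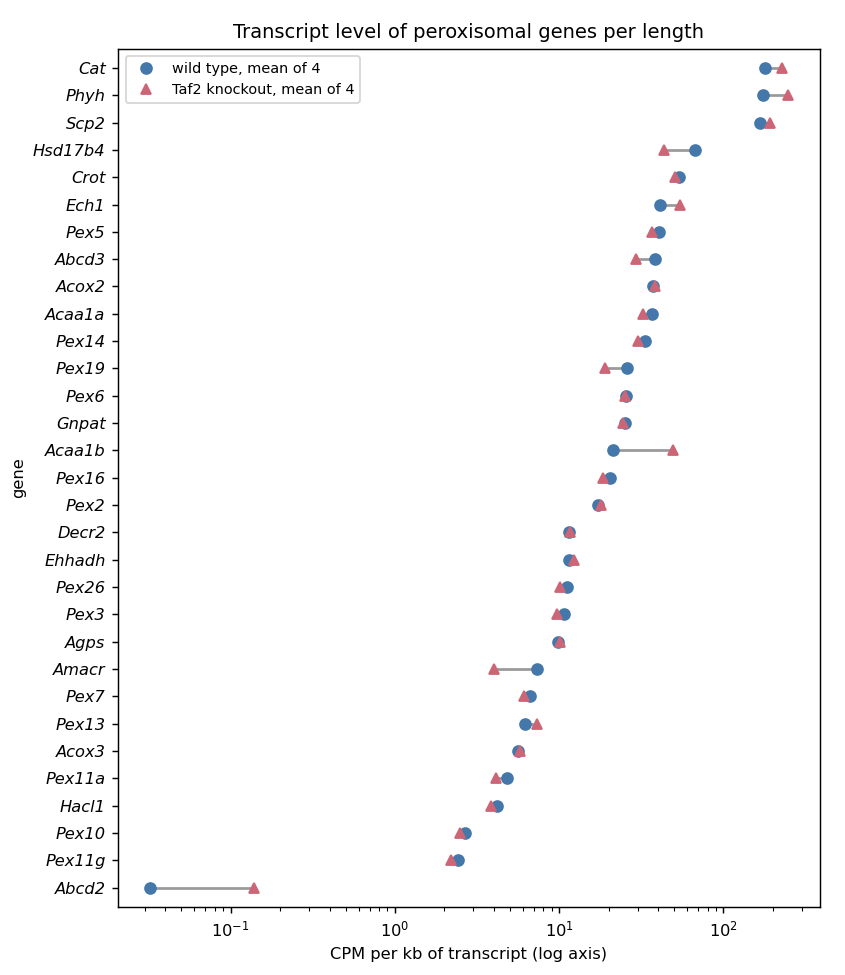
Mean CPM per kb of transcript on a log axis, wild type (circles) and knockout (triangles), 4 libraries each, ordered by the wild-type level. The range runs from Abcd2 below 0.2 to Cat, Phyh and Scp2 above 150, and the longest bars are those of Abcd2, Acaa1b, Amacr and Hsd17b4.

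Peroxins were described first, from membrane to matrix. Pex3, Pex16 and Pex19 insert membrane proteins, Pex19 as the soluble chaperone that carries them and Pex3 as its anchor. Pex19, on chromosome 1 from 172126755 to 172136493 (build mm10), was at 58.6, 60.6, 62.3 and 63.7 CPM in the wild-type libraries. In the knockout it was at 46.6, 43.5, 45.6 and 44.7 CPM, below every wild-type library (log2 fold change -0.44, SE 0.040; edgeR adjusted p = 8.26e-09). This was the largest change among the 13 Pex genes. Pex3 stood at 18.7 ± 1.36 CPM without and 16.9 ± 0.473 CPM with the knockout (SD, n = 4 each; edgeR adjusted p = 0.056), and Pex16 at 26.1 ± 0.623 and 23.7 ± 2.81 CPM (edgeR adjusted p = 0.0902), and neither passed. Pex3 did pass without wild-type replicate 1 (edgeR adjusted p = 0.046) or 4 (0.0361), and Pex16 without knockout replicate 3 (0.00727), over ranges of 0.0361 to 0.193 and 0.00727 to 0.328.

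Import of matrix proteins begins with the receptors Pex5 and Pex7, which recognise targeting signals of enzymes in the cytosol. Pex5, the most abundant Pex gene, fell from 118.8 to 132.3 CPM in the wild-type libraries to 109.7 to 116.9 CPM in the knockout (log2 fold change -0.14, SE 0.039; edgeR adjusted p = 0.00544). Pex7 was at 30.3 ± 1.49 and 27.8 ± 0.939 CPM, and its libraries overlapped. The docking partners at the membrane went opposite ways. Pex14 fell from 67.3 ± 0.607 to 60.7 ± 2.42 CPM (log2 fold change -0.15, SE 0.037; edgeR adjusted p = 0.00178). Pex13 stood at 27.3, 26.6, 24.1 and 24.8 CPM in the wild type and at 29.6, 28.2, 30.9 and 33.7 CPM in the knockout, without overlap. It was the one Pex gene that rose (log2 fold change 0.25, SE 0.060; edgeR adjusted p = 0.00138).

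Receptors are recycled by a ubiquitin ligase of RING proteins and by an ATPase complex that pulls them from the membrane. The ligase genes Pex2 (31.1 ± 0.696 and 32.1 ± 1.62 CPM) and Pex10 (4.48 ± 0.297 and 4.18 ± 0.485 CPM) did not pass, with edgeR adjusted p = 0.426 and 0.415. Of the ATPase complex, Pex6 was at 82.2 ± 2.77 and 80.96 ± 1.45 CPM (edgeR adjusted p = 0.627). Pex26, its membrane anchor, had a log2 fold change of -0.15 (SE 0.049; edgeR adjusted p = 0.0132) from 37.7 ± 2.16 to 34.04 ± 1.08 CPM, with overlapping libraries. Pex11a and Pex11g, which take part in the division of peroxisomes, were low. Pex11a fell from 10.7 ± 1.01 to 9.21 ± 0.313 CPM (log2 fold change -0.22, SE 0.079; edgeR adjusted p = 0.0222), and Pex11g was at 6.96 ± 0.551 and 6.34 ± 0.276 CPM (edgeR adjusted p = 0.206). In all, 1 of 13 Pex genes rose (7.69%, beside 30.2% of all genes) and 6 fell (46.2%, beside 31.2%). The share called was 53.8%, beside 61.4% of all genes. A negative fold change was found in 11 of 13, and none of these changes reached 1.5-fold, where 18.4% of all genes did. The range was -0.44 to 0.25 with a median of -0.14.

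Some of these small calls were lost when a library was left out or the processing was changed. Pex7 (edgeR adjusted p = 0.0353) passed in 7 of 16 alternatives. It did not pass without wild-type replicate 1 (edgeR adjusted p = 0.112) or 4 (0.0892) or without knockout replicate 1 (0.075), 3 (0.104) or 4 (0.0825). With all libraries kept, Pex7 did not pass with upper-quartile scaling (edgeR adjusted p = 0.0833), the stricter filter (0.0537) or thinning (0.0555). DESeq2's Wald test did not pass it either (adjusted p = 0.0811). Pex11a did not pass without wild-type replicate 2 (edgeR adjusted p = 0.091) or 3 (0.0571) or knockout replicate 3 (0.062), in a range from 0.00873 to 0.091. Nor did Pex11a pass DESeq2's Wald test (adjusted p = 0.0583). Pex26 ended at 0.05002 without knockout replicate 4, in a range from 0.00215. Pex19, Pex5, Pex13 and Pex14 passed in 16 of 16 alternatives.

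Fatty acids enter the organelle through ABC transporters of subfamily D. Abcd3, which carries branched-chain and bile acid precursors, lies on chromosome 3 from 121758774 to 121815302. It stood at 130.7, 138, 135.1 and 132.1 CPM in the wild type and at 107.1, 103.6, 98.2 and 99.1 CPM in the knockout. Every knockout library was lower than every wild-type library (log2 fold change -0.39, SE 0.038; edgeR adjusted p = 1.81e-08). Abcd2, a transporter known mainly from brain and fat, was at 0.179 ± 0.0976 CPM in wild-type and 0.762 ± 0.202 CPM in knockout libraries, a log2 fold change of 2.04. This largest fold change of the 31 rests on 2 to 6 counts per wild-type library and 12 to 20 per knockout library. Abcd2 passed the filter on low counts only through the knockout libraries, where it is high, so its call is no support for a difference and its p is not given. Markers of macrophages and endothelial cells, whose sums are given above, were higher in the same libraries, and their part in the level of Abcd2 was not tested.

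Each round of β-oxidation takes an oxidase, a bifunctional enzyme and a thiolase. The oxidases of branched-chain substrates did not change detectably. Acox2 was at 100.2 ± 3.49 and 103.1 ± 2.56 CPM (edgeR adjusted p = 0.342), and Acox3 at 22.4 ± 0.917 and 23.03 ± 1.26 CPM (edgeR adjusted p = 0.563). At the second step the pair of bifunctional enzymes came apart. Hsd17b4 encodes the D-bifunctional protein, which handles branched-chain fatty acids and bile acid precursors, and lies on chromosome 18 from 50128201 to 50196269. It was at 181.7, 173, 185 and 184.1 CPM in the wild type and at 117.1, 115.3, 114.9 and 121.8 CPM in the knockout, far from overlapping (log2 fold change -0.63, SE 0.037; edgeR adjusted p = 9.88e-12). Ehhadh encodes the L-bifunctional protein, which acts on straight-chain and dicarboxylic acids and is a classical target of PPARA. It rose slightly, from 34.1 ± 0.663 to 36.7 ± 0.801 CPM (log2 fold change 0.11, SE 0.043; edgeR adjusted p = 0.0385). Per length, the ratio of Ehhadh to Hsd17b4 was between 0.163 and 0.177 in the wild-type libraries and between 0.279 and 0.287 in the knockout. The rise of Ehhadh passed in 8 of 16 alternatives. It did not pass without wild-type replicate 2 (edgeR adjusted p = 0.0655), 3 (0.0817) or 4 (0.0865) or knockout replicate 1 (0.0645) or 4 (0.0744). With all libraries kept, it did not pass without the filter on low counts (edgeR adjusted p = 0.0936) or with thinning (0.0532). DESeq2's Wald test did not pass it either (adjusted p = 0.076). All alternatives lay between 0.0141 and 0.0936.

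Amacr, on chromosome 15 from 10981756 to 10996626, encodes a racemase that turns branched-chain acyl-CoAs and bile acid intermediates into the form the oxidases accept. It stood at 19.5, 19.4, 18.4 and 18.6 CPM in the wild-type libraries and at 9.73, 9.49, 11.02 and 10.8 CPM in the knockout. This was the largest fall of the 31 genes (log2 fold change -0.89, SE 0.068; edgeR adjusted p = 6.67e-10). Scp2, which encodes a thiolase for branched chains and a sterol carrier protein from 1 gene, went the other way. It was at 427 to 458 CPM in the wild type and 495 to 518 CPM in the knockout (log2 fold change 0.20, SE 0.034; edgeR adjusted p = 3.77e-05). Genes known for branched-chain and bile acid side chain oxidation therefore included falls (Amacr, Hsd17b4, Abcd3), a rise (Scp2) and a gene that did not pass (Acox2). Counts are per gene, so the rise of Scp2 cannot be assigned to its thiolase rather than its sterol carrier protein.

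The straight-chain thiolase is encoded by a close pair of genes on chromosome 9, Acaa1a from 119339676 to 119350299 and Acaa1b from 119148023 to 119157093, and the pair moved in opposite directions. Acaa1b was at 33.9, 35.7, 34.1 and 39.5 CPM in the wild type and at 87.4, 71.6, 93.8 and 78.5 CPM in the knockout. Its lowest knockout library was thus well above its highest wild-type library (log2 fold change 1.21, SE 0.067; edgeR adjusted p = 4.41e-12). Acaa1a was at 66.2, 61.5, 65.6 and 66.7 CPM in the wild type and at 58.1, 55.2, 58.1 and 57.6 CPM in the knockout (log2 fold change -0.18, SE 0.038; edgeR adjusted p = 0.000306). Acaa1b made up 33.9% to 37.2% of the counts of the pair in wild-type libraries but 56.5% to 61.8% with the knockout. Together the pair rose from 100.8 ± 3.79 to 140.1 ± 10.95 CPM. These were the 2 genes of the 31 with values that were not whole, in 8 of 8 libraries, so reads shared between the copies were divided by an estimate and the split is less certain than the sum. Summed before the fit, the pair had a log2 fold change of 0.48 (edgeR adjusted p = 3.89e-08). Exons of Acaa1a overlap Myd88 on the other strand by 290 bases and those of Acaa1b overlap Dlec1 by 224. Myd88 was at 30.01 and 29.0 CPM and Dlec1 at 0.700 and 0.557 CPM, neither of which passed. Such exon overlaps with another gene were found for 12 of the 31 genes (also Pex3, Pex13, Pex14, Pex16, Pex26, Pex11g, Acox3, Crot, Hacl1 and Gnpat), and with no stated strand setting the reads of overlapping genes cannot be told apart.

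The sequences before the start of this pair are shown because its members differ in direction, with that of the catalase gene Cat beside them as an abundant gene that rose. Each is the 250 bases before the RefSeq gene start (build GRCm38.p6), 5′ to 3′ on the gene's strand. Capitals mark the CCAAT box. They also mark the GC box, whose letters are GGGCGG. The last motif in capitals is the site to which PPARA and related receptors bind, mostly as a pair, with the letters AGGTCA. All were searched on both strands, so their reverse complements are in capitals too. Acaa1b is at chr9:119157094-119157343 on the minus strand, Acaa1a at chr9:119341044-119341293 on the plus strand and Cat at chr2:103485154-103485403 on the minus strand. The gene positions given above are GENCODE spans, which can start elsewhere. That of Acaa1a starts upstream of its RefSeq start, so its stretch lies inside the span and also within Myd88 on the other strand, and the GENCODE span of Cat reaches a few bases into its stretch.
Acaa1b: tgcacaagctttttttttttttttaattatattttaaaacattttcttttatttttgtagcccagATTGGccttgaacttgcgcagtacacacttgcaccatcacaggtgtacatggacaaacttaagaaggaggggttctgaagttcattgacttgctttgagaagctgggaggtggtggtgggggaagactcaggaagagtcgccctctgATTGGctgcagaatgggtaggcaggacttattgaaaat
Acaa1a: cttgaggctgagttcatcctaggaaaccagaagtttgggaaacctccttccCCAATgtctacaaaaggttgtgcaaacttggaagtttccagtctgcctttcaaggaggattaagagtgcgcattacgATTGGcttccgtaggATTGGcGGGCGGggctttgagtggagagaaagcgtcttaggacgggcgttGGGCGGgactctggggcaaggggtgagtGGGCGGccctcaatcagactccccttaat
Cat: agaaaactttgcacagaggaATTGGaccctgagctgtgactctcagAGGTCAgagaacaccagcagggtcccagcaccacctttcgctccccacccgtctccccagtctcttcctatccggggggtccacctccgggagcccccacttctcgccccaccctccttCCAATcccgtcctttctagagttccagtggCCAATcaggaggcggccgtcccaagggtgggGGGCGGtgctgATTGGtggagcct
The Acaa1b stretch held no GC box and 41.6% G and C, and the Acaa1a stretch 3 GC boxes and 53.6% G and C. Both held CCAAT boxes, for Acaa1b 185 and 38 bases before the start. The Cat stretch held an AGGTCA 204 bases before the start, 4 CCAAT boxes and 1 GC box.

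RefSeq windows of 300 bases, from 250 before to 50 after the start, were matched for 26 of the 31 genes (31 windows). Pex19, Pex2, Abcd2, Hsd17b4 and Amacr had no window, so several of the largest changes are not covered. All 31 genes passed the filter on low counts, but the windows compared with theirs were not limited to such genes. A GC box was in 67.7% of the windows of the 26 genes and in 35.7% of all 32851 windows. CCAAT was in 38.7% beside 37.4%, TATAAA in 9.68% beside 13.6%, and AGGTCA in 12.9% beside 16.3%. A direct repeat of AGGTCA spaced by 1 base, the element PPARA binds with its partner, was in 0 of the 31 windows without mismatch and in 0.0396% of all windows. With up to 2 mismatches it was in 2 of them, those of Acox2 and Cat, and in 3.86% of all. An exact repeat is so rare that it would hardly be met in 31 windows, so its absence there says little. Sequence outside the windows was not searched. The repeat overlaps the single AGGTCA motif, and the match in letters says nothing about binding.

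**Figure D3:**
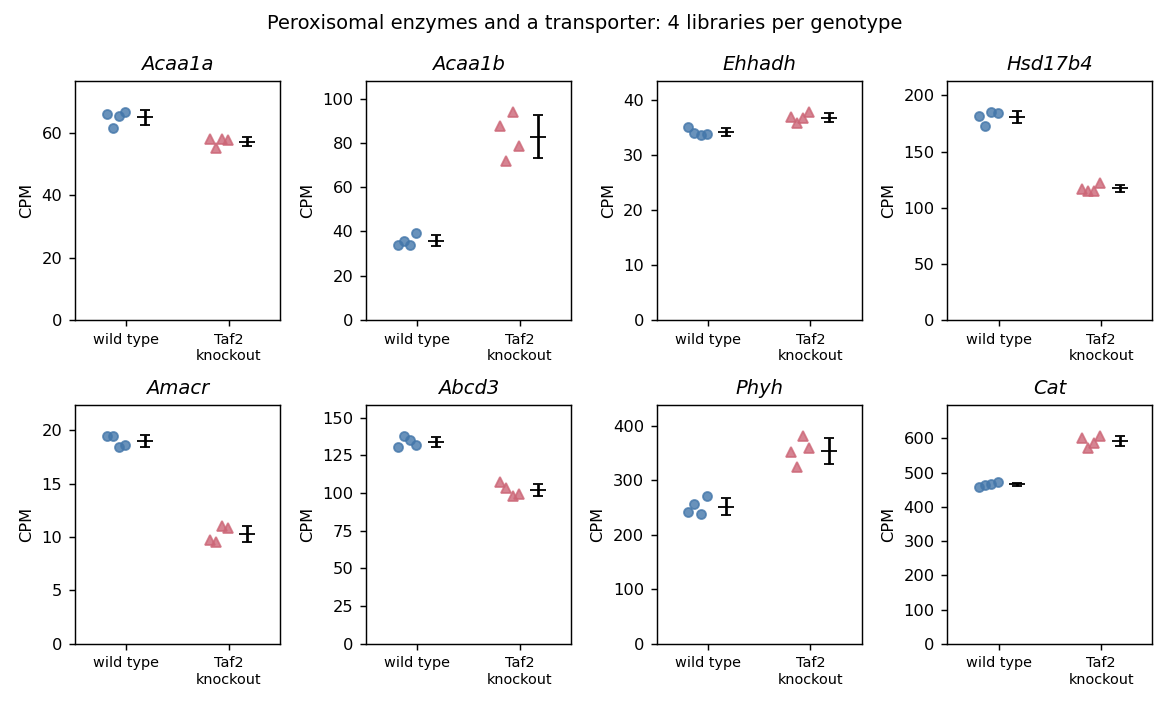
CPM of 7 peroxisomal enzyme genes and the transporter gene Abcd3 in 4 wild-type (circles) and 4 knockout libraries (triangles), with the mean and SD beside them; each axis starts at 0. Acaa1b, Phyh and Cat were higher and Hsd17b4, Amacr and Abcd3 lower in every knockout library, while the Ehhadh libraries differ by little.

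The auxiliary enzymes prepare unsaturated chains and hand shortened ones on. Ech1, whose product moves double bonds and is shared between peroxisomes and mitochondria, was at 52.8, 53.4, 47.3 and 55.9 CPM in the wild type and at 68.1, 67.7, 72.2 and 68.4 CPM in the knockout. All knockout libraries were above all wild-type ones (log2 fold change 0.40, SE 0.045; edgeR adjusted p = 1.84e-07). Decr2, the peroxisomal dienoyl-CoA reductase gene, was at 25.6 ± 1.75 and 25.95 ± 1.43 CPM (edgeR adjusted p = 0.798). Crot, which makes carnitine esters for export to mitochondria, was at 161 ± 3.32 and 151.2 ± 3.30 CPM (log2 fold change -0.091, SE 0.035; edgeR adjusted p = 0.0285). That call for Crot, the smallest change of the 19 that passed, held in 9 of 16 alternatives. It ended without wild-type replicate 2 (edgeR adjusted p = 0.0685) and without knockout replicate 1 (0.0582), 3 (0.0857) or 4 (0.0895). With all libraries kept, it ended with upper-quartile scaling (edgeR adjusted p = 0.0993), the stricter filter (0.0546) and thinning (0.113). All alternatives lay between 0.0219 and 0.113.

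Phyh encodes phytanoyl-CoA hydroxylase, which starts the α-oxidation of phytanic acid, and lies on chromosome 2 from 4919019 to 4938730. It stood at 241, 256, 238 and 271 CPM in the wild type and at 353, 324, 382 and 359 CPM in the knockout. With no overlap, it had the largest rise among genes above 100 CPM of the 31 (log2 fold change 0.49, SE 0.048; edgeR adjusted p = 2.3e-08). Hacl1, the lyase of the next step, was at 11.1 ± 0.322 and 10.2 ± 0.512 CPM and did not pass (edgeR adjusted p = 0.176). The ether lipid enzymes Gnpat and Agps, which make the first intermediates of plasmalogens, did not pass either. Gnpat was at 75.3 ± 0.902 and 72.6 ± 0.396 CPM (log2 fold change -0.051, SE 0.032; edgeR adjusted p = 0.178), and Agps at 71.9 ± 2.79 and 74.6 ± 2.54 CPM (0.054, SE 0.038; edgeR adjusted p = 0.234). Catalase, which breaks down hydrogen peroxide, was the most abundant of the 31 in counts. Cat was at 459, 464, 467 and 471 CPM in the wild-type libraries and at 599.7, 573, 587 and 607 CPM in the knockout (log2 fold change 0.35, SE 0.033; edgeR adjusted p = 1.71e-08). Its 4 knockout libraries all lay above the wild-type ones. Among the 18 enzymes and transporters 7 were called higher, Abcd2 included, and 5 lower (66.7% called, beside 61.4% of all genes). Their log2 fold changes had a median of 0.041 and a range from -0.89 to 2.04.

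Further peroxisomal genes outside the 31 were taken from lists of general knowledge. Of 74 listed, 73 were in the table and 65 were tested. Of these 34 fell (52.3%, beside 31.2% of all genes) and 7 rose (10.8%, beside 30.2%), with a median log2 fold change of -0.17. In the list for assembly and division, 12 of 20 fell (60%) and 1 rose (5%). The membrane channel gene Pxmp2 fell from 10.8 ± 0.954 to 6.58 ± 0.0952 CPM, Pxmp4 from 8.48 to 4.17 CPM, Acbd4, which tethers peroxisomes to the endoplasmic reticulum, from 30.9 to 15.6 CPM, and the cofactor carrier gene Slc25a17 from 79.01 to 52.96 CPM. Atad1 rose from 88.97 to 98.3 CPM. The protease gene Lonp2, the most abundant of this list, was at 125 and 119 CPM and did not pass (edgeR adjusted p = 0.11).

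In the list of lipid enzymes and transporters 18 of 32 fell (56.2%, beside 31.2% of all genes) and 3 rose (9.38%, beside 30.2%). The largest falls were in genes that join bile or fatty acids to amino acids. Acnat2 dropped from 42.4 to 9.48 CPM (a log2 ratio of -2.17, SE 0.104), and Acnat1 went from 36.1 to 10.7 CPM (-1.76, SE 0.103), both with reads shared between copies. Baat, the bile acid conjugating enzyme gene, fell from 20.8 to 7.53 CPM (-1.47, SE 0.0878), and the epoxide hydrolase gene Ephx2 from 165.9 to 97.6 CPM. Slc27a2, whose product activates very long chain and bile acids, rose from 32.8 to 56.7 CPM and Pecr from 12.98 to 15.2 CPM. Idi1, the most abundant of this list, fell from 387 to 249.03 CPM, and with Mvk and Pmvk it also belongs to cholesterol synthesis.

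The list of oxidases, amino acid and antioxidant enzymes was mixed, with 3 of 13 higher (23.1%, beside 30.2% of all genes) and 4 lower (30.8%, beside 31.2%). Uox, the urate oxidase gene, rose from 409.9 to 647 CPM (log2 fold change 0.66, SE 0.0401), Sod1 from 253 to 330.02 CPM and Xdh from 88.7 to 97.5 CPM. Hao1, the glycolate oxidase gene, fell from 37.7 to 23.8 CPM (-0.67, SE 0.0498), Idh1 from 158 to 128.6 CPM, Ide from 219 to 196 CPM and Prdx5 from 298 to 274 CPM. Prdx1, at 1105 and 1178 CPM, did not pass (edgeR adjusted p = 0.0759). It passed without wild-type replicate 1 (edgeR adjusted p = 0.0431) or knockout replicate 3 (0.0109), with upper-quartile scaling (0.0295), with the stricter filter (0.048) and with a replicate block (0.0238), and all 16 alternatives lay between 0.0109 and 0.238.

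**Figure D4:**
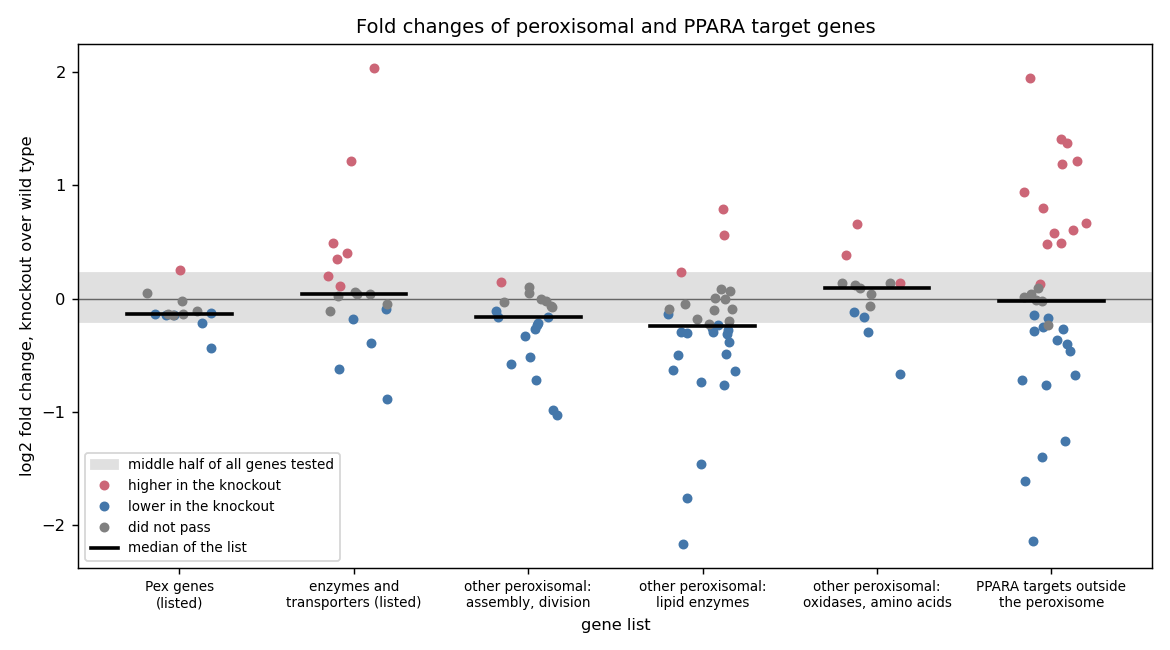
Log2 fold change of each tested gene by list, coloured by call, with the median of the list as a black bar and the range between the quartiles of all genes tested as a grey band. The other assembly genes and lipid enzymes reach below -1 and have medians below 0, while the PPARA targets spread from about -2.15 to 1.95 around a median of -0.02.

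Genes of the PPARA pathway were compared next. Ppara itself fell from 48.6 ± 3.05 to 44.2 ± 2.12 CPM (log2 fold change -0.14, SE 0.049; edgeR adjusted p = 0.0191). Whether the call for Ppara holds under the alternatives was not tested. Of 16 genes for PPARA, related receptors and partners, 4 rose (25%, beside 30.2% of all genes) and 7 fell (43.8%, beside 31.2%). The share called was 68.8%, beside 61.4% of all genes. Fabp1, the fatty acid binding protein gene, rose from 62.7 to 90.6 CPM, Lpin1 from 50.9 to 71.2 CPM, and the receptor genes Ppard from 17.5 to 23.8 CPM and Rxrb from 28.8 to 39.1 CPM. Falls were seen in Nr1h3 from 48.6 to 29.0 CPM, Pparg from 15.2 to 10.9 CPM, Ncor1 from 170.04 to 126.4 CPM and Esrra from 63.3 to 53.1 CPM. Hnf4a was at 356 and 366 CPM and did not pass (edgeR adjusted p = 0.268).

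Targets of PPARA outside the peroxisome went both ways, with a median log2 fold change of -0.02. Of 34 tested, 13 rose (38.2%, beside 30.2% of all genes) and 15 fell (44.1%, beside 31.2%). A change of at least 1.5-fold was called for 16 of them (47.1%, beside 18.4% of all genes). Cyp4a14 rose from 3.25 to 8.59 CPM, Cyp4a10 from 11.6 to 22.2 CPM and Pdk4 from 7.19 to 18.7 CPM. Vnn1 fell from 9.25 to 3.04 CPM, Acot2 from 12.9 to 5.37 CPM, Plin4 from 14.7 to 8.62 CPM and Aldh1a1 from 950.2 to 359 CPM. Reads of Cyp4a10, Acot2 and Aldh1a1 were partly shared with copies. Cyp4a31 (5.32 and 1.18 CPM) moved opposite to Cyp4a10, and Acot1 (1.24 and 2.87 CPM) opposite to Acot2. Their values were not whole either, so the split between such copies is uncertain. Plin2, the most abundant, was at 961 and 973 CPM (edgeR adjusted p = 0.746).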

How the data were processed

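RNA was extracted with the QIAGEN miRNeasy kit and sequenced from Illumina TruSeq libraries on a HiSeq3000, per the labels' protocols. The authors deposited RSEM expected counts per gene (mm10 is the build named, per the submitters' processing notes). Aligner, trimming and strand setting: not given in the sources used here. Of the deposited columns, the 8 marked set2, as the libraries are in the labels, were used, and 8 without that mark matched no sample and were not used. The labels speak of 2 rounds of sequencing and do not say which round or rounds the columns used hold. In these, 2.85% of values were not whole (tolerance 0.005), and counts were rounded to whole numbers.

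Of 24411 genes, 12122 passed filterByExpr and were fitted together with edgeR 4.0.16 (R 4.3.3, limma 3.58.1), with TMM scaling, quasi-likelihood F tests and Benjamini-Hochberg adjustment over all genes. SE is the absolute log2 fold change over the square root of F. CPM uses the scaled library sizes. Values after ± are SDs of 4 libraries. The steps were tested on simulated data. All changes put into it were larger than 0.25, the median absolute log2 fold change of the peroxisomal genes called. Smaller calls were thus not covered. Each library counted once. Within a genotype, libraries differed by more than counting noise (chi-square over degrees of freedom 3.19 to 8.7), which does not tell whether they came from separate animals.

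The 31 genes and the other lists were chosen with earlier results of these data known. Genes named from each other peroxisomal or PPARA list were those called with the largest changes in each direction, at a mean of at least 5 CPM, and the most abundant. From each marker list the rule took the 2 most abundant genes. The other markers in the text, among them Dcn, Reln, Adgre1, Ptprc, Tyrobp, Gpihbp1, Col1a2, Lum, Cyp7a1 and Cftr, were named outside that rule. Ppara, Mvk, Pmvk, Myd88 and Dlec1 were named after their values were seen, and some genes that the rule picks are not reported here. The alternatives tried were DESeq2 1.42.0, limma-voom, RLE or upper-quartile scaling, 2 other filters, a replicate block, thinning and leaving out each library. Promoter letters come from RefSeq.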

Additional observations from a re-analysis of the deposited data

Results flagged for a closer look

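In 168 groups of 4 libraries, over 84 genes, 11 had 1 library set apart from the other 3 by more than the 95% critical value of Dixon's ratio, a rate that chance gives in about 1 of 20 groups. Among the peroxisomal genes, knockout replicate 2 was low for Pex14 (57.2 CPM, the others at 61.5 to 62.4) and for Acaa1a (55.2 CPM, the others at 57.6 to 58.1). Knockout replicate 3 was high for Ech1 (72.2 CPM, the others at 67.7 to 68.4). Each of these libraries lay on the far side of its group from the wild type, and Pex14, Acaa1a and Ech1 kept their calls without it.

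Of the other genes, wild-type replicate 2 was low for Acbd4 (29.1 CPM, the others at 31.3 to 31.8) and for Vim (1040 CPM, the others at 1120 to 1130). Wild-type replicate 4 was low for Slc27a2 (30.1 CPM, the others at 33.4 to 33.9) and high for Lpin1 (55.3 CPM, the others at 49.1 to 50.1). Knockout replicate 1 was high for Pparg (12.2 CPM, the others at 10.4 to 10.7), for Cyp4a10 (24 CPM, the others at 21.3 to 21.8) and for Plin4 (9.35 CPM, the others at 8.3 to 8.44). Knockout replicate 4 was low for Cyp4a14 (6.92 CPM, the others at 9.09 to 9.25).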

How the results depend on the processing

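Of the 31 genes, 22 had the same call and direction under all of the 16 alternatives that could be fitted. Abcd2 was removed by the stricter filter. The median log2 fold change of the 31 genes, -0.091, was -0.067 with upper-quartile scaling and -0.067 with thinning to the smallest library, and ranged from -0.097 to -0.047 when 1 library was left out. Directions reversed only for genes that did not pass and for Acaa1a. Pex6 was at 0.0028 with upper-quartile scaling. Decr2 ranged from -0.018 to 0.059 and Plin2 from -0.0093 to 0.057 with 1 library left out. The sum of Acaa1a and Acaa1b, an alternative chosen after seeing the data, was at 0.48. The cause of these shifts was not tested, except that the sum is mostly Acaa1b in the knockout. With the replicate number as a block, 8 of the 31 genes were higher and 11 lower, as without it, and 3666 genes were higher and 3771 lower over all, beside 3663 and 3784. Libraries of the same number had correlations of deviations between -0.066 and 0.031. No pairing by number was thus seen, but such values cannot exclude a weak one. Depth limits Abcd2, at 2 to 20 counts per library, while the next lowest value of the 31 genes was 78 counts.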
